A study of Mus musculus with 24 samples.

Results

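The genes described here encode the proteins of the large subunit of the cytoplasmic ribosome. They are the genes of the deposited expression table whose symbol is Rpl followed by a digit, or Rplp0, Rplp1 or Rplp2, without the processed copies whose symbol holds "-ps". This rule found 52 of the 23235 genes in the table and used no measured value. Of these, 51 reached a mean of 1 FPKM (fragments per kilobase of transcript and of sequencing, a level corrected for transcript length) in at least 1 group and were tested with the 10884 genes that did so. The remaining member, Rpl3l, is a relative of Rpl3 known from heart and skeletal muscle, and it was listed at 0 in 23 of the 24 libraries and at 0.09 FPKM in the other one.

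The study sequenced RNA of C57BL/6 mouse oocytes and zygotes, with donors at postnatal day 21 in every group. Wild type (WT), Cnot6l-/- and Btg4-/- animals were each sampled at 4 stages, with 2 libraries in each of the 12 groups. Oocytes at the germinal vesicle stage (GV) were taken 48 h after PMSG, a gonadotropin that drives follicle growth. Oocytes at the first (MI) and second (MII) meiotic metaphase came after 8 and 16 h of culture, and zygotes were collected 24 h after hCG, which triggers ovulation. The labels name no drug for any sample, although the growth protocol mentions a MEK inhibitor in some experiments. They do not say how the alleles were made, and they do not say whether the 2 libraries of a group came from separate animals, so every p-value measures the spread between libraries, which may be technical. They give the number of oocytes per library as 100 in one place and 2 in another.

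A ribosomal large subunit holds ribosomal RNA and one copy of most of its proteins. It carries the peptidyl transferase centre, where amino acids are joined, the tunnel through which the new chain leaves, and 2 flexible stalks that recruit elongation factors and release spent tRNA. Mouse oocytes build and store ribosomes and their mRNAs while they grow, are silent in transcription from the end of growth, and then remove many stored mRNAs during maturation. The deadenylase CNOT6L shortens poly(A) tails as part of CCR4-NOT, and BTG4 is an adaptor that brings that complex to mRNAs. Messenger RNAs of ribosomal proteins are known for a tract of pyrimidines that begins with a C at their first base (the TOP motif), which controls their translation.

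In all 24 libraries the 12 oocyte markers examined were above 0. Summed levels of 14 cumulus and granulosa cell markers stayed at or below 29.4 FPKM. In both WT GV libraries 10 of these 14 were above 0, and 2, Foxl2 and Ptx3, were at 0. Summed levels of 7 blood and immune markers stayed at or below 3.59 FPKM, with Hba-a1 and Hbb-b1 at 0 in every library. Of these 7, 2 were above 0 in both WT GV libraries. Sperm markers, 9 in number, summed to at most 105 FPKM. In WT the oocyte marker sum was between 14825 and 16170 FPKM at GV and between 1444 and 2359 FPKM in zygotes, and the cumulus sum was 20.2 to 26.3 FPKM at GV and 1.58 to 2.08 FPKM in zygotes. The part of these markers in the results was not tested. The Cnot6l transcript was between 3.40 and 7.26 FPKM in the 8 Cnot6l-/- libraries and between 7.07 and 73.9 FPKM in the 8 WT libraries. The Btg4 transcript was between 765 and 2515 FPKM in the libraries labelled Btg4-/- and between 554 and 2490 FPKM in WT, so its level does not check that label, and these groups are called "labelled Btg4-/-" throughout.

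Sequences at the start of these genes are shown because the TOP motif is the feature the family is known for. Of the 52 genes, 40 had an entry in the RefSeq table of promoters (build GRCm38.p6). A C at the annotated start followed by 4 pyrimidines was found for 7 of these 40 (17.5%), against 3.20% of the 7720 tested genes with an entry. The hexamer CTTTCC, read on the sense strand within 15 bases of the start, was found for 8 of the 40 (20.0%), against 1.72% of the tested genes; it can overlap the C-led tract. The 7 windows below run from 12 bases before the start to 18 bases from it on, and capitals mark the unbroken pyrimidine run that begins at the annotated start.
Rpl14 (chr9:120571505-120571534, plus strand): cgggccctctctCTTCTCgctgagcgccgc
Rpl15 (chr14:18270969-18270998, minus strand): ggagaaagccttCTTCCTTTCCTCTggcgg
Rpl28 (chr7:4792953-4792982, plus strand): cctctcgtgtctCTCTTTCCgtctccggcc
Rpl35 (chr2:39005114-39005143, minus strand): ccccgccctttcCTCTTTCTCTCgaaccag
Rpl35a (chr16:33056470-33056499, plus strand): gggcttgccttcCTCTTTCCgccatcttgg
Rpl38 (chr11:114668568-114668597, plus strand): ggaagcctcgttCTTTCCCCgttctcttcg
Rplp2 (chr7:141447639-141447668, plus strand): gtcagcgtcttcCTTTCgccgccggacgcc
The runs were 5 (Rplp2) to 13 (Rpl15) bases long. Annotated starts can lie a few bases from the start used in the oocyte, so a gene outside this list was not shown to lack the motif.

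The messages are short. Over the 50 members with a GENCODE vM1 transcript that has both UTRs (build mm9), the median transcript was 802 bases, the median coding sequence 478.5 bases and the median 3′ UTR 93.5 bases. Over the 10020 tested genes with such a transcript these medians were 2579.5, 1248 and 803 bases. Across the 50 members, a longer transcript went with a lower WT GV level (Pearson r = -0.41 and Spearman rho = -0.41 on log2 values), a description across genes of the same libraries. FPKM is itself divided by transcript length, and the part of this in the relation was not tested. It is 1 of many relations computed. Some were larger, such as coding length with percent of GV at Cnot6l-/- MI (Pearson r = 0.598) and 5′ UTR length with that at WT MII (-0.487).

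Members differed in the 3′ UTR hexamer TTTTAT, the cytoplasmic polyadenylation element bound by CPEB proteins during oocyte maturation. On the sense strand it was present in 12 of the 50 members (24.0%), against 50.7% of the tested genes of any 3′ UTR length. They include Rpl5, Rpl13a, Rpl15, Rpl22, Rpl31, Rpl32 and Rplp2. Windows of up to 26 bases are shown for 4 of them that were among the better kept in labelled Btg4-/- zygotes (mm9; capitals mark the hexamer).
Rplp2 (chr7:148637225-148637249, plus strand): aataaagtctTTTTATgtatcttga
Rpl22 (chr4:151708096-151708121, plus strand): acttgctggtTTTTATgcctttctaa
Rpl32 (chr6:115755545-115755570, minus strand): tgtgtgcatgTTTTATgtttaaataa
Rpl5 (chr5:108337512-108337537, plus strand): gacgtttcatTTTTATggtacatgcc
In Rplp2 the hexamer starts at base 28 of a 42-base 3′ UTR, just after a polyadenylation signal (AATAAA). In Rpl22 it starts at base 1573 of 1647, and in Rpl5 at base 507 of 1009.

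GV oocytes held these messages at high levels in all genotypes. The summed FPKM of the 52 genes was 19582 and 20001 in the WT GV libraries, 16167 and 19844 in Cnot6l-/-, and 14651 and 24136 in labelled Btg4-/-. This was 3.602% and 4.428% of the summed FPKM of all genes in WT, 3.44% and 4.01% in Cnot6l-/-, and 3.47% and 4.42% in labelled Btg4-/-. In WT the highest member was Rpl41, which encodes the shortest peptide of the ribosome, at 2177 and 1966 FPKM, and the median member mean was 294 FPKM. At the other end stood Rpl10l, a retrogene copy of the X-linked Rpl10 best known from testis, at 3.39 and 3.37 FPKM. Mean levels of 40 of the 51 members were at least 100 FPKM.

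Genotype made little measurable difference at GV. By limma on log2(FPKM + 1), with Benjamini-Hochberg adjustment over all 10884 genes and an adjusted p under 0.05 as the call, 1 of 51 members differed between Cnot6l-/- and WT, where 9.09% of all genes tested were called in either direction. That member was Rpl10l, at 7.26 and 9.84 FPKM in Cnot6l-/- against 3.39 and 3.37 in WT, a log2 difference of 1.11 (SE 0.21). It lost its call when libraries were scaled to a fixed total and when only the 4 libraries compared were fitted. Between labelled Btg4-/- and WT no member was called by limma, 2 had an unadjusted p under 0.05, and 7.43% of all genes were called. Between the knockouts no member was called, 4 had an unadjusted p under 0.05, and 18.3% of all genes were called. Without labelled Btg4-/- GV replicate 2, the library with the higher sum, 1 member was called against WT and 2 against Cnot6l-/-.

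**Figure D1:**
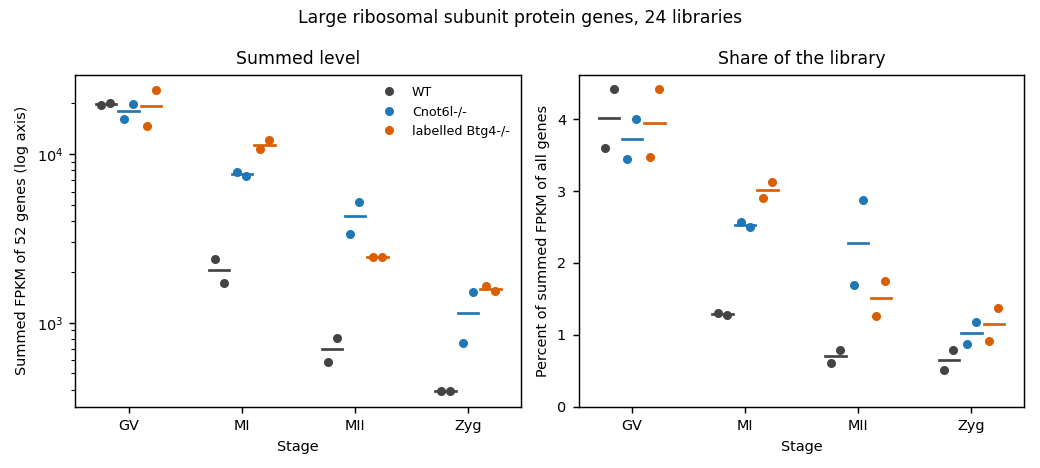
Summed FPKM of the 52 large subunit protein genes (left, log axis) and their percent of the summed FPKM of all genes (right) in each of the 24 libraries, by stage and genotype; points are libraries and bars the mean of 2. WT falls from 3.602% and 4.428% at GV to 1.30% and 1.28% at MI, while the 4 knockout libraries at MI lie between 2.496% and 3.122%.

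In WT the whole family fell as oocytes left the GV stage. All 51 tested members were lower at MI than at GV, where 65.1% of all genes tested were lower. The median log2 change of the members was -3.94, beside -0.95 for all tested genes, and the median member kept 6.32% of its GV level, beside 31.8% for all genes with a GV mean of at least 1 FPKM. Adding 1 FPKM before log2 shrinks changes of low genes, which draws the log2 median of all genes nearer to 0 than that of the members. This holds for every such pair of medians below, while percents of GV hold no added value. The summed FPKM was 2388 and 1721 in the MI libraries, 1.30% and 1.28% of the library. Because the deposited FPKM of whole libraries also fell (to 32.0% of the GV total at MI), scaled values are given beside these: 43 members were lower after median-ratio scaling and 40 after scaling to a fixed total, beside 30.5% and 18.8% of all genes, where the median of all genes was -0.16 and 0.03, and none was called higher. With FPKM of bulk samples, fewer transcripts of a gene per cell and a change in total RNA per cell cannot be told apart. Poly(A) tails were not measured, and their part in the levels of any genotype was not tested. Protein levels were not measured either, so all levels given are those of messages.

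Retrogene copies stood at both ends of this fall. Rpl36al, an autosomal copy of the X-linked Rpl36a, was at 718 and 791 FPKM in the GV libraries and at 10.1 and 6.99 FPKM in the MI libraries. Its log2 change was -6.32 (SE 0.30, adjusted p = 3.97e-10 by limma), the lowest of the 51. Rpl10l, at 1.33 and 1.5 FPKM at MI, had the change nearest to 0, -0.86 (SE 0.21, adjusted p = 0.00186 by limma), and it was not lower after either scaling. Its low level limits what the pseudocount of 1 lets it show.

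Messages for the stalk that recruits elongation factors split into 2 pairs. Rplp0, the base of the stalk, was at 295 and 409 FPKM at GV and at 19.4 and 17.6 FPKM at MI, a log2 change of -4.16 (SE 0.40). Rpl12, which binds beside it, was at 94.4 and 93.7 FPKM at GV and at 3.29 and 3.08 FPKM at MI. Messages of the acidic tip proteins kept more: Rplp1 was at 517 and 602 FPKM at GV and at 156 and 115 FPKM at MI. Rplp2 was at 396 and 417 FPKM at GV and at 114 and 87.5 FPKM at MI, a log2 change of -2.01 (SE 0.46). Rplp1 and Rplp2 thus held 24.2% and 24.8% of the GV level while Rplp0 and Rpl12 held 5.25% and 3.39%. The lower call of Rplp2 was lost under both scalings.

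Members that take part in the last steps of subunit assembly or line the catalytic centre fell by different amounts. Rpl24, added to the particle in the cytoplasm, was at 225 and 286 FPKM at GV and at 4.40 and 3.54 FPKM at MI, a log2 change of -5.69 (SE 0.34). Rpl3, which reaches into the catalytic centre, was at 97.7 and 99.8 FPKM and then at 2.28 and 2.82 FPKM. Rpl8, also near that centre, was at 82.0 and 123 FPKM and then at 8.48 and 8.60 FPKM. Rpl10, whose joining makes the subunit ready for translation, was at 533 and 641 FPKM and then at 182 and 122 FPKM. The 4 genes kept between 1.55% (Rpl24) and 25.9% (Rpl10) of their GV level.

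Messages of the protein pair that carries the small RNA of the large subunit, and that binds Mdm2 when free, were intermediate. Rpl5 was at 638 and 401 FPKM at GV and at 84.2 and 60.9 FPKM at MI. Rpl11 was at 541 and 529 FPKM at GV and at 98.2 and 68.2 FPKM at MI. Tunnel and exit genes ranged from Rpl19, at 431 and 540 FPKM and then at 15.3 and 11.8 FPKM, to Rpl22, at 22.5 and 24.9 FPKM and then at 6.79 and 5.55 FPKM. All 10 genes of the tunnel and its rim were lower, with log2 changes from -5.07 to -1.79. Rpl10a, the protein of the stalk that releases tRNA, was at 140 and 231 FPKM and then at 13.4 and 10.2 FPKM.

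Rpl41 had the highest mean level of the members at every WT stage, although in 1 of the 2 zygote libraries Rpl37, at 32.8 FPKM, was above its 32.1 FPKM. At MI it was at 797 and 533 FPKM, 32.1% of GV, a log2 change of -1.67 (SE 0.43). The sum without it was 1389 FPKM (mean of 2 libraries), against 2054 FPKM with it. Scaled to a fixed total, its change was -0.01 and it was not called.

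From MI to MII in WT, 36 of 51 members fell further, where 32.6% of all genes tested were lower. The median change was -1.44, beside -0.44 for all genes. Rpl5 fell most: from 84.2 and 60.9 FPKM at MI it reached 14.8 and 2.82 FPKM at MII, a log2 change of -3.22 (SE 0.56, adjusted p = 0.000309 by limma). Members not called included Rplp0, at 12.03 and 23.5 FPKM in the MII libraries, and Rpl13a, at 9.16 and 14.8 FPKM. After median-ratio scaling 22 members were lower, where 25.1% of all genes were.

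Across the whole of maturation, from GV to MII, all 51 members fell, where 83.4% of all genes tested were lower. The median change was -5.37, beside -1.37 for all genes, a median drawn nearer to 0 by the pseudocount. The median member kept 2.09% of its GV level, beside 14.6% for all genes. Rpl19 reached 2.08 and 1.38 FPKM at MII, 0.356% of GV, with a log2 change of -7.48 (SE 0.29). Rpl10l changed by -1.38 (SE 0.21) and Rplp2 kept 17.4%, at 44.0 and 97.6 FPKM. Scaled, 49 and 45 members were lower, where 43.2% and 31.8% of all genes were, with none higher. Summed FPKM was 581 and 810, or 0.613% and 0.785% of the library.

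From MII to zygote few WT members were called, and not in 1 direction. This step holds more than fertilization: MII oocytes had spent 16 h in vitro, while zygotes followed an ovulation triggered by hCG. Fertilization and this difference in handling cannot be told apart in any genotype, and the part of each was not tested. The summed FPKM was 391 in both zygote libraries, below the 581 and 810 at MII, and without Rpl41 its mean was 335 in zygotes and 451 at MII. As a share of the library it was 0.514% and 0.784% in zygotes, beside 0.613% and 0.785% at MII. Without Rpl41 the mean share was 0.548% in zygotes and 0.453% at MII. Between MII and zygote 2 members were higher, where 1.04% of all genes were higher, and 2 were lower, where 3.22% were lower. Rpl36al was at 3.2 and 3.8 FPKM at MII and at 11.4 and 8.85 FPKM in zygotes, a log2 change of 1.30 (SE 0.30). Rpl28 was at 2.06 and 2.69 FPKM and then at 7.21 and 6.56 FPKM, a change of 1.23 (SE 0.32). Rpl41 was at 197 and 293 FPKM and then at 32.1 and 79.5 FPKM, a change of -2.22 (SE 0.43), and Rplp1 was at 19.4 and 27.9 FPKM and then at 4.72 and 7.50 FPKM, a change of -1.80 (SE 0.37). The MII and zygote libraries of these 4 genes did not overlap, as was so for 18.5% of all genes in the higher and 28.1% in the lower direction. These calls are fragile: 2 members, both lower, were called without WT MII replicate 1, and none without WT MII replicate 2 or without WT zygote replicate 1. Under the scalings to a median ratio and to a fixed total, 9 and 13 members were higher and 2 lower, where 15% and 18.1% of all genes were higher, a share near that of the members. Of all genes 4.86% and 2.95% were lower.

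**Figure D2:**
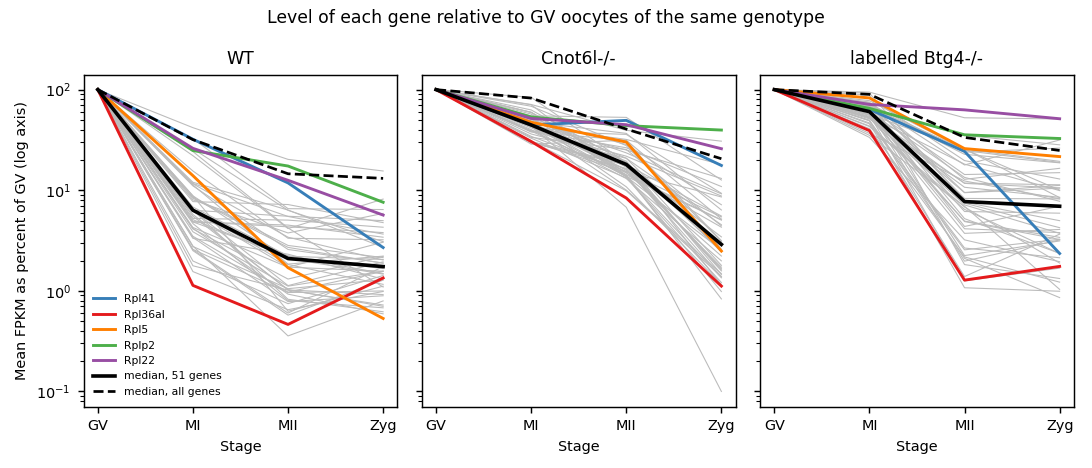
Mean FPKM of each of the 51 genes as percent of the GV mean of the same genotype (log axis) at each stage; grey lines are single genes, 5 are coloured, the solid black line is the median of the 51 and the dashed line the median of all genes with a GV mean of at least 1 FPKM (Rpl26, at 0 in both Cnot6l-/- zygote libraries, is drawn at 0.1). The median of the 51 lies below that of all genes at each later stage, at 6.32% against 31.8% at WT MI.

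Cnot6l-/- oocytes kept a much larger percent of the GV level of these messages at MI than WT did. Of 51 members 34 fell between GV and MI, where 15% of all genes tested were lower, with a median log2 change of -1.16 beside -0.14. The median member kept 44.6% of its GV level, beside 82.4% for all genes. Rpl38, a rim protein known for its part in the translation of Hox messages, stood at 631 and 682 FPKM at GV and at 191 and 187 FPKM at MI, the lowest change at -1.79 (SE 0.37). Rpl8 kept the largest share, 83.8%, with 62.5 and 115 FPKM at GV and 74.8 and 74.2 FPKM at MI, which overlap. The count rests on the precision of few libraries: it was 12 without either GV library, 7 without the MI column numbered 2 and 3 without the MI column numbered 3. A pseudocount of 0.1 gave 6, median-ratio scaling 22 and a fixed total 5. Of all genes 10.6% were lower after median-ratio scaling and 1.55% after a fixed total. The share of all genes was not set beside the other refits.

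In Cnot6l-/- most members were lower again in zygotes than at MII, while the step from MI to MII did not stand out from that of all genes. From MI to MII 30 of 51 members fell, where 54.3% of all genes were lower, a share near the background, with a median change of -1.27 beside -0.74. From GV to MII 50 of 51 fell, where 59.9% of all genes were lower, all but Rpl34, and the median member kept 18.04% of GV, beside 40.6% for all genes. From MII to zygote 43 fell, where 28.7% of all genes were lower, with a median change of -2.48 beside -0.46. Rpl39, a small protein of the tunnel wall, was at 172 and 277 FPKM at MII and at 11.3 and 26.3 FPKM in zygotes, the largest drop at -3.58 (SE 0.40). Rplp2 was at 106 and 236 FPKM at MII and at 83.2 and 225 FPKM in zygotes, and it was not called. Summed FPKM in Cnot6l-/- went from 7872 and 7408 at MI to 3368 and 5211 at MII and to 758 and 1527 in zygotes. After scaling, the GV to MII count was 33 (median ratio) or 21 (fixed total), where 23.4% or 9.55% of all genes were lower. The MI to MII count was 7 or 13, where 26.8% or 24% of all genes were lower. The MII to zygote count was 36 or 34, where 18.1% or 13.4% were, and no member was higher in any of the 6.

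Oocytes labelled Btg4-/- changed least at MI. From GV to MI 1 of 51 members was lower, where 1.26% of all genes were lower, and 22 had an unadjusted p under 0.05. That member was Rpl36al, at 560 and 1080 FPKM at GV and at 302 and 339 FPKM at MI, a change of -1.28 (SE 0.30). The 2 GV libraries had member sums of 14651 and 24136 FPKM. Without the first of them 6 members were lower, and none was called without the second or without either MI library. The median member kept 60.4% of its GV level, beside 89.7% for all genes.

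The fall in labelled Btg4-/- came between MI and MII. There 47 of 51 members fell, where 69.3% of all genes were lower, with a median change of -2.65 beside -0.997. The exceptions were Rpl11, Rpl22, Rpl34 and Rplp2. After median-ratio scaling 35 members were lower and 1 higher, and after a fixed total 34 and 1. Of all genes 30.6% were lower and 5.31% higher, or 25.3% and 4.02%. Rpl10a had the largest drop and was at 145 and 163 FPKM at MI and at 2.89 and 3.45 FPKM at MII. From GV to MII 49 members fell, where 75.3% of all genes were lower, all but Rpl22 and Rpl34. Under these scalings 39 and 37 were lower, where 29.7% and 19.9% of all genes were. Under the latter 1 was higher, where 4.03% of all genes were. Between MII and zygote 2 members were lower, where 1.07% of all genes were lower. These were Rpl41, at 504 and 555 FPKM at MII and at 60.9 and 41.4 FPKM in zygotes, a change of -3.37 (SE 0.43), and Rpl38, at 65.3 and 49.4 FPKM and then at 11.1 and 6.00 FPKM, a change of -2.65 (SE 0.37). Under the same scalings 2 were higher and 2 lower, or 1 higher and 3 lower. Of all genes 2.15% were higher and 1.36% lower, or 0.855% and 1.16%. None was called when only these 4 libraries were fitted. The sum was 10657 and 12133 FPKM at MI, 2452 and 2468 FPKM at MII and 1653 and 1537 FPKM in zygotes.

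**Figure D3:**
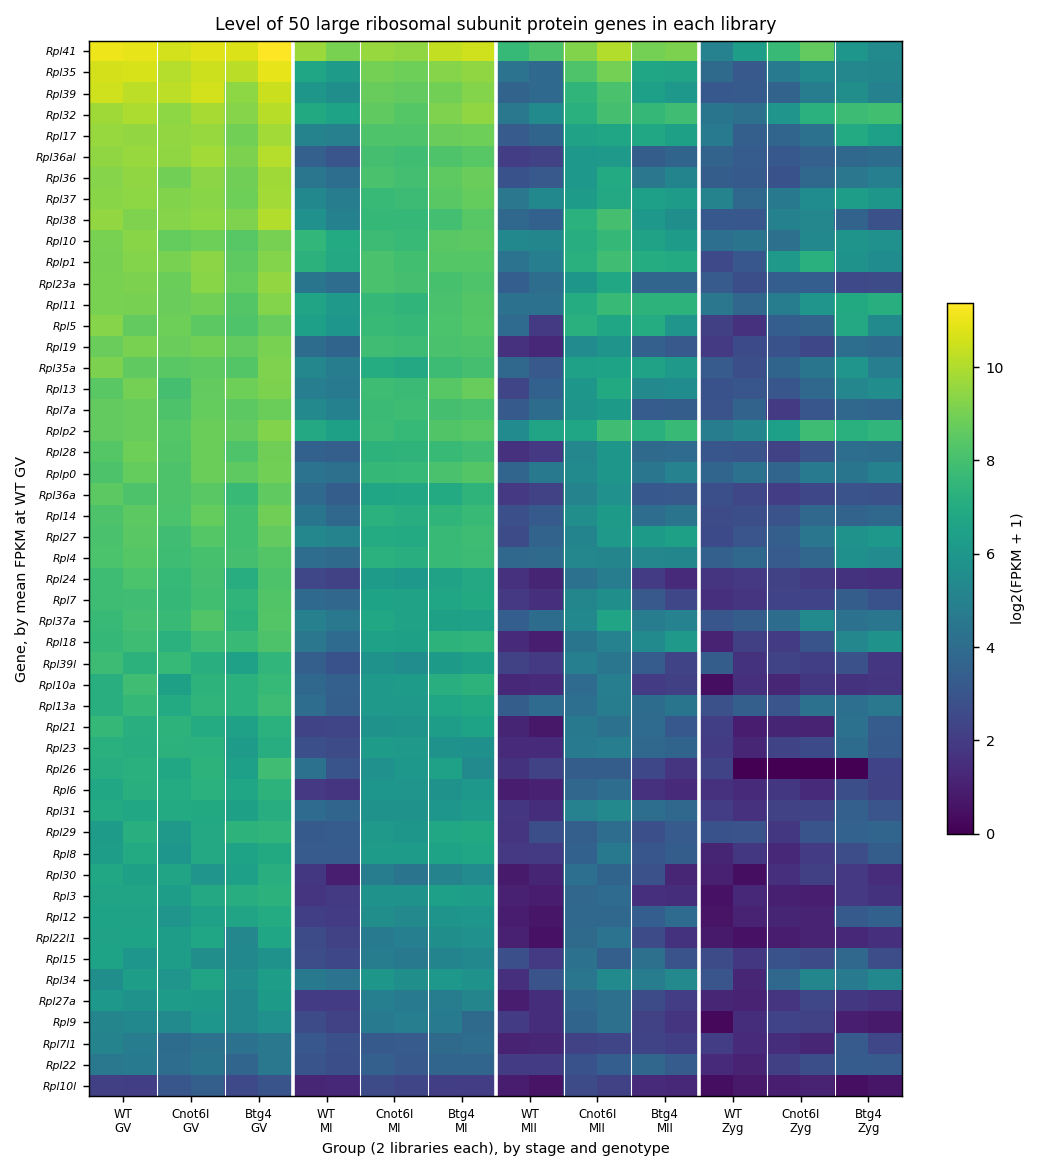
Level of 50 of the 51 tested genes (rows, by mean WT GV level) in the 24 libraries (columns, by stage and then genotype, 2 per group), as log2(FPKM + 1). At MI the columns of both knockouts are brighter than the WT columns for most genes; at MII the Cnot6l-/- columns are the brightest of the 3 genotypes for most genes.

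Set against WT at the same stage, both knockouts were higher. At MI 45 of 51 members were higher in Cnot6l-/-, where 60.3% of all genes tested were higher, with a median difference of 2.62 beside 0.87. In labelled Btg4-/- at MI all 51 were higher, where 68.7% of all genes were, with a median difference of 3.16 beside 0.99. After median-ratio scaling 36 members were higher in Cnot6l-/- and 38 in labelled Btg4-/-, where 35.8% and 32.5% of all genes were. After a fixed total the counts were 35 and 38, where 32% and 26.5% of all genes were. Under both scalings Rpl7l1, Rpl10l, Rpl22 and Rpl41 changed sign in labelled Btg4-/-, and no member was called lower. Rpl36al was again the extreme, at 256 and 233 FPKM in Cnot6l-/- and 302 and 339 FPKM in labelled Btg4-/-, against 10.1 and 6.99 FPKM in WT, a difference of 4.70 (SE 0.30) and 5.09 (SE 0.30). Members not called in Cnot6l-/- were Rpl7l1, Rpl10, Rpl22, Rpl34, Rpl41 and Rplp2, which had kept between 22.05% (Rpl7l1) and 32.5% (Rpl34) of their GV level in WT. Rpl41, for one, was at 781 and 717 FPKM in Cnot6l-/- MI oocytes and at 797 and 533 FPKM in WT, which overlap. The 2 comparisons share the WT libraries.

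At MII more members were higher than WT in Cnot6l-/- than in labelled Btg4-/-. In Cnot6l-/- 49 of 51 members were higher than in WT, where 44.3% of all genes tested were higher, with a median difference of 2.91 beside 0.56. The exceptions were Rpl13a, at 17.0 and 27.6 FPKM against 9.16 and 14.8 FPKM in WT, and Rpl26, at 9.17 and 9.21 FPKM against 2.15 and 3.69 FPKM. Rpl35, which holds the exit site of the tunnel and carries a long pyrimidine run at its start, was at 299 and 507 FPKM against 19.0 and 14.0 FPKM, a difference of 4.50 (SE 0.36). Rpl10a was at 14.5 and 27.8 FPKM against 1.42 and 1.64 FPKM, a difference of 3.06 (SE 0.40). After median-ratio scaling 41 were higher in Cnot6l-/-, where 34.3% of all genes were, and after a fixed total 39, where 28.5% were. Labelled Btg4-/- oocytes had 34 members higher than in WT, where 28.3% of all genes were, with a median difference of 1.35 beside 0.38. Scaled in the same ways, 22 and 25 were higher, where 21.8% and 19.1% of all genes were. The largest difference was that of Rpl18, at 42.4 and 69.3 FPKM against 1.66 and 0.94 FPKM, 4.60 (SE 0.41), followed by Rpl5, at 130 and 59.7 FPKM against 14.8 and 2.82 FPKM, 3.52 (SE 0.56). Not higher were Rpl7a, at 9.01 and 9.27 FPKM against 8.2 and 14.97 FPKM, and Rpl23a, at 11.96 and 12.13 FPKM against 9.48 and 15.8 FPKM, where the groups overlap.

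By role, the 49 and 34 of 51 members called at MII fell as follows, where 44.3% and 28.3% of all genes were higher. With nearly all members called in Cnot6l-/-, near complete counts by role there repeat the rate of the family. Messages of all 4 stalk genes were higher in Cnot6l-/- and of 3 in labelled Btg4-/-, the exception being Rplp0. Both carriers of the small RNA, Rpl5 and Rpl11, were higher in each knockout. Of the 4 genes of the catalytic centre and late joining, all were higher in Cnot6l-/- and 2, Rpl8 and Rpl10, in labelled Btg4-/-. Of the 10 tunnel and rim genes 9 were higher in Cnot6l-/- and 8 in labelled Btg4-/-. Rpl10a was higher in Cnot6l-/-, while in labelled Btg4-/- it stood at 2.89 and 3.45 FPKM against 1.42 and 1.64 FPKM in WT, with an adjusted p = 0.211 by limma. Of the 34 members higher in labelled Btg4-/-, all were also higher in Cnot6l-/-, which is 69.4% of the 49. With 49 of 51 members called in Cnot6l-/- and the WT libraries shared, this overlap was nearly fixed in advance.

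**Figure D4:**
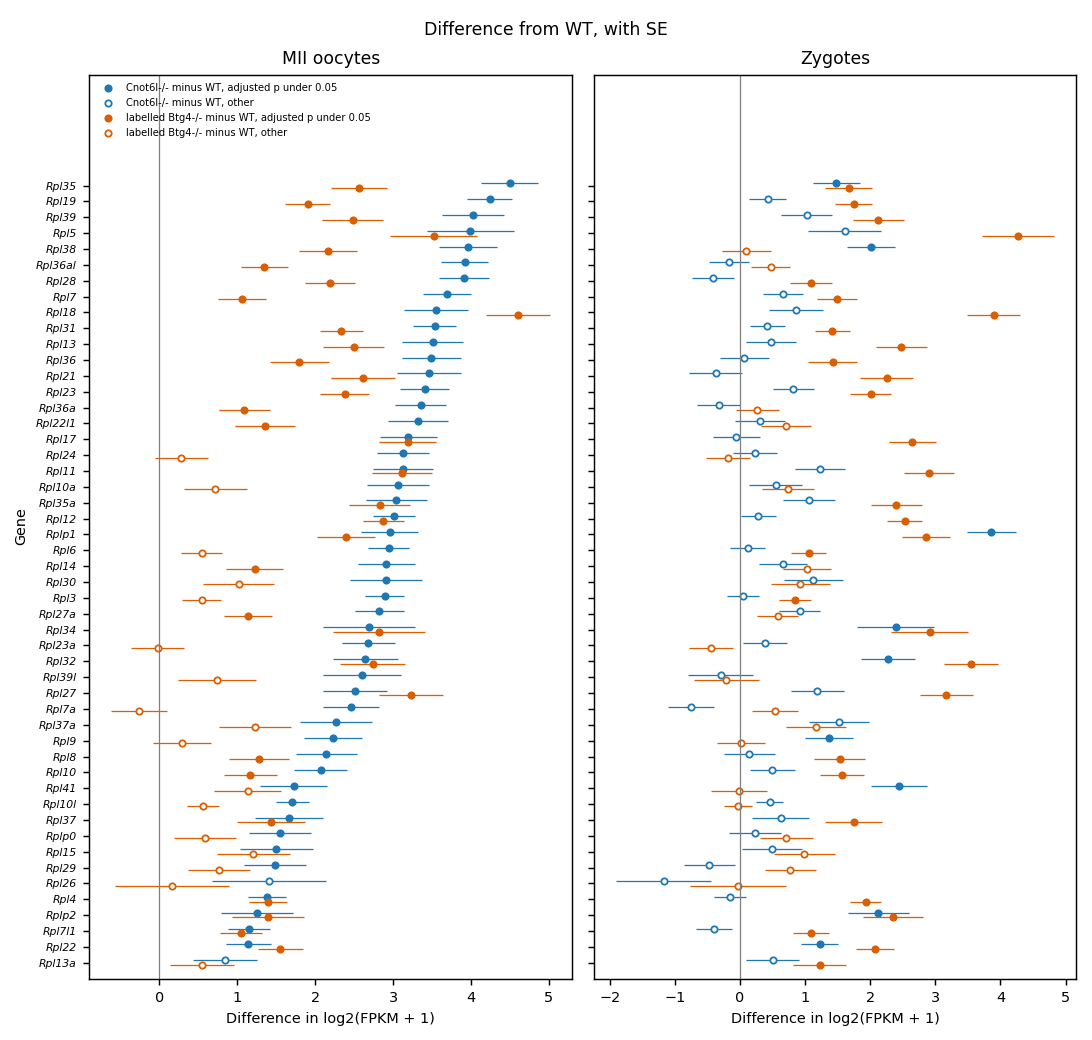
Difference from WT in log2(FPKM + 1) with its SE for 50 of the 51 tested genes, at MII (left) and in zygotes (right), for Cnot6l-/- (blue) and labelled Btg4-/- (orange); filled points have an adjusted p under 0.05, and both panels share the order of genes. At MII nearly all blue points are filled and lie above 0, while in zygotes more orange than blue points are filled.

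In zygotes fewer members were called in Cnot6l-/- than in labelled Btg4-/-, against the same WT libraries. In Cnot6l-/- 9 were higher than in WT, where 8% of all genes tested were higher, with a median difference of 0.49 beside 0.18. These were Rpl9, Rpl22, Rpl32, Rpl34, Rpl35, Rpl38, Rpl41, Rplp1 and Rplp2. Rplp1 led, at 68.1 and 148 FPKM against 4.72 and 7.50 FPKM in WT, a difference of 3.86 (SE 0.37), and Rpl41 was at 201 and 392 FPKM against 32.1 and 79.5 FPKM, a difference of 2.45 (SE 0.43). Without Cnot6l-/- zygote replicate 2, the library with the higher sum, 3 were higher. Scaled to a fixed total, 6 members were higher and 8 lower and the median difference was -0.17, so the direction of the family as a whole in these zygotes depends on the scaling. Of all genes 6.2% were then higher and 9.43% lower.

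In labelled Btg4-/- zygotes 31 members were higher, where 21.5% of all genes were, with a median difference of 1.23 beside 0.38. Rpl5 was at 115 and 42.8 FPKM against 3.45 and 2.07 FPKM, a difference of 4.27 (SE 0.56). Rpl18 was at 36.9 and 55.1 FPKM against 1.14 and 3.48 FPKM, a difference of 3.90 (SE 0.41). Rpl11, the partner of Rpl5, was at 120 and 141 FPKM against 22.04 and 12.4 FPKM. Rpl32 was at 221 and 241 FPKM against 20.3 and 17.5 FPKM, and it was the highest member of these zygotes. Scaled, 16 were higher and 1 lower (median ratio), or 15 higher and 4 lower (fixed total). Of all genes 11.7% were then higher and 3.04% lower, or 6.5% and 5.34%. Of the 9 members higher in Cnot6l-/- zygotes 66.7% were also higher in labelled Btg4-/-, which is 19.4% of its 31. With 31 of 51 members called in labelled Btg4-/- and the WT libraries shared, this overlap was not read as a result.

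The fall itself was compared between genotypes as an interaction, the change from GV in a knockout minus that in WT. At MI 41 of 51 members had fallen less in Cnot6l-/-, where 44.4% of all genes tested had, with a median of 2.81 beside 0.84. For labelled Btg4-/- the count was 46, where 45.4% of all genes were called, with a median of 3.26 beside 0.88. Rpl36al had the largest value in both, 4.62 (SE 0.43) and 5.05 (SE 0.43). At MII 45 members had fallen less in Cnot6l-/-, where 24.1% of all genes had, with a median of 2.86 beside 0.56, led by Rpl35 at 4.83 (SE 0.51). In labelled Btg4-/- at MII the count was 26, where 13.3% of all genes were called, with a median of 1.57 beside 0.28, led by Rpl18 at 4.38 (SE 0.58). After median-ratio scaling the counts were 29, 32, 34 and 18, and after a fixed total 30, 29, 35 and 19, with none in the other direction. Of all genes 18.7%, 18.2%, 15% and 12.4% were called higher after median-ratio scaling, and 13.4%, 11.3%, 12.2% and 8.83% after a fixed total.

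Compared with each other, the knockouts changed order by the median difference from MI to MII and again from MII to zygote. The change between stages was not itself tested. At MI no member was called between them by limma, 8 had an unadjusted p under 0.05, and 10.1% of all genes tested were called; the median difference was -0.54. Fitted on those 4 libraries alone, 40 were called lower in Cnot6l-/- and 2 higher, and 44% of all genes were called. At MII 25 of 51 were higher in Cnot6l-/- than in labelled Btg4-/-, where 11% of all genes were, with a median of 1.04 beside 0.13. Rpl24 was at 18.5 and 26.2 FPKM against 3.0 and 1.56 FPKM, a difference of 2.85 (SE 0.34). In zygotes 3 were higher in Cnot6l-/-, where 1.71% of all genes were, and 23 lower, where 12.8% were, with a median of -0.93 beside -0.15. Rpl18 was at 3.11 and 6.67 FPKM in Cnot6l-/- zygotes against 36.9 and 55.1 FPKM, a difference of -3.04 (SE 0.41). The 3 higher genes were Rpl41, at 201 and 392 FPKM against 60.9 and 41.4 FPKM (2.46, SE 0.43), Rpl38, at 30.7 and 37.2 FPKM against 11.1 and 6.00 FPKM (1.92, SE 0.37), and Rpl9, at 3.83 and 3.55 FPKM against 0.93 and 0.77 FPKM (1.34, SE 0.37). Scaled by median ratio or to a fixed total, 25 and 24 members were higher at MII, where 13.9% and 10% of all genes were. In zygotes 4 and 6 were then higher and 16 and 15 lower. Of all genes 7.31% and 7.82% were higher there and 17% and 11.5% lower. Fitted on only the 4 libraries compared, fewer members were called at MII and in zygotes. Leaving out replicate 1 of the Cnot6l-/- or of the labelled Btg4-/- zygotes also left fewer called.

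**Figure D5:**
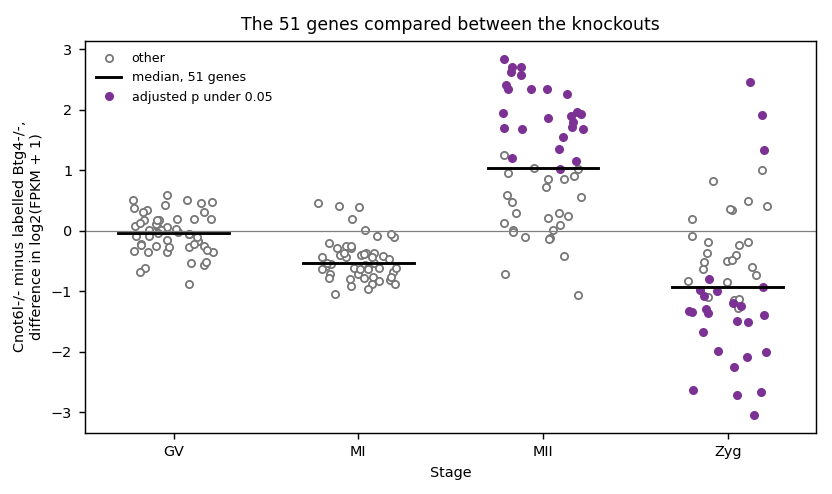
Difference in log2(FPKM + 1) between Cnot6l-/- and labelled Btg4-/- for each of the 51 genes at each stage, spread sideways at random; filled points have an adjusted p under 0.05 and bars mark the median. Medians are -0.54 at MI, 1.04 at MII and -0.93 in zygotes, with 25 points called higher at MII and 23 called lower in zygotes.

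Which members kept most of their GV level was partly alike across genotypes. Over the 51 members, Spearman's rho between the percent of GV in WT and in Cnot6l-/- was 0.38 at MI, 0.62 at MII and 0.68 in zygotes, and between WT and labelled Btg4-/- 0.42, 0.62 and 0.52. These are descriptions across genes of shared libraries. Every member kept a higher percent in Cnot6l-/- than in WT at MI and at MII, and 49 of 51 did in labelled Btg4-/- at MII. All genes moved the same way: their median was 31.8% in WT and 82.4% in Cnot6l-/- at MI. At MII it was 14.6% in WT, 40.6% in Cnot6l-/- and 33.5% in labelled Btg4-/-. The same count was not made over all genes, so these counts are not read as particular to the members. Rpl22 and Rplp2 were near the top at MII and in zygotes in all 3 genotypes. In labelled Btg4-/- zygotes Rpl22 was at 8.86 and 8.73 FPKM, 51.3% of GV, and Rplp2 at 147 and 176 FPKM, 32.7%. In Cnot6l-/- zygotes they held 25.9% and 39.6%. Members without TTTTAT in the 3′ UTR were also near the top. Rpl34 kept 52.5% of GV at MII and 51.1% in zygotes of labelled Btg4-/-, and 30.7% in Cnot6l-/- zygotes. Rpl10l kept the largest percent at MII in WT (20.3%) and in Cnot6l-/- (53.0%).

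Members with TTTTAT in the 3′ UTR kept more of their GV level than the others at each stage and in each genotype. For the 12 members with it and the 38 without it, the WT medians were 11.4% and 5.17% at MI. At MII they were 3.79% and 1.52%, and in WT zygotes 3.36% and 1.48%. Medians in Cnot6l-/- were 46.4% with and 43.7% without it at MI and 24.3% and 17.1% at MII. In Cnot6l-/- zygotes they were 8.67% and 2.54%. Those in labelled Btg4-/- were 64.2% and 56.9%, 15.6% and 6.63%, and 14.9% and 3.93% at the same stages. Ranges overlapped throughout, from 4.27% to 26.1% with and from 1.13% to 41.9% without it at WT MI, and the hexamer is commoner in long 3′ UTRs. No test of this was made. The 7 members with a pyrimidine run at the annotated start had a WT MII median of 2.15% of GV, as had the 32 other tested members with a promoter entry. At MII in Cnot6l-/- the medians were 25.4% and 17.8%, in labelled Btg4-/- 6.92% and 10.1%, and in labelled Btg4-/- zygotes 4.08% and 7.99%, so neither set was higher throughout.

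Paralog pairs changed their balance. Rpl22 and Rpl22l1 encode closely related proteins: at WT GV Rpl22l1 was the higher, at 91.2 and 96.1 FPKM against 22.5 and 24.9 FPKM, and at WT MII the lower, at 1.05 and 0.45 FPKM against 2.88 and 3.06 FPKM. In Cnot6l-/- MII oocytes Rpl22l1 was still above Rpl22, at 14.0 and 18.8 FPKM against 6.32 and 9.44 FPKM. In labelled Btg4-/- MII oocytes it was below, at 5.21 and 2.13 FPKM against 12.5 and 9.03 FPKM. Rpl36al was above its parent Rpl36a at WT GV, at 718 and 791 FPKM against 364 and 294 FPKM, and about level with it at WT MII, at 3.2 and 3.8 FPKM against 2.73 and 3.66 FPKM. Rpl39l, a copy of Rpl39 used in male germ cells, stood below Rpl39 in both WT GV libraries, at 223 and 155 FPKM against 1488 and 1218 FPKM. Rpl7l1 was at 32.9 and 26.9 FPKM at WT GV, below Rpl7 at 224 and 233 FPKM. Rpl10l never reached 10 FPKM in any library. Because parent and copy can share reads, a change of balance within a pair is uncertain where their sequences are nearly alike.

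Many members have processed copies that the rule leaves out, and a member and its copy may share reads. Among these copies Rpl34-ps1 was at 555 and 293 FPKM in WT GV libraries, where Rpl34 was at 49.97 and 79.33 FPKM, and the sources used here do not say how reads that match both were counted. In zygotes Rpl34-ps1 was at 4.35 and 4.23 FPKM in WT, at 51.9 and 69.2 FPKM in Cnot6l-/- and at 292 and 174 FPKM in labelled Btg4-/-. Rpl34 in the same libraries was at 7.01 and 1.30 FPKM, at 12.7 and 35.9 FPKM and at 25.2 and 38.9 FPKM.

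The ratio of large to small subunit protein messages, as summed FPKM of 52 over 34 genes, was 1.43 and 1.45 in WT GV libraries and 1.57 and 1.52 at MI. At MII it was 0.819 and 0.929, below every GV and MI library of the 3 genotypes. In Cnot6l-/- MII oocytes it was 1.42 and 1.45, and in labelled Btg4-/- 1.29 and 1.38. In zygotes it was 0.508 and 0.915 in WT, 0.844 and 1.02 in Cnot6l-/- and 0.967 and 1.15 in labelled Btg4-/-. A few abundant genes weigh most in these sums: by gene, the median GV to MII change in WT was -5.77 for the small and -5.37 for the large subunit. No test of the ratio was made.

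Other genes of ribosome production and use were read from the same fits, where 65.1% and 83.4% of all genes fell from GV to MI and to MII in WT, and 44.3% and 28.3% were higher at MII in Cnot6l-/- and labelled Btg4-/-. Of the 34 small subunit protein genes 32 fell from GV to MI in WT and 33 from GV to MII (medians -4.27 and -5.77), and at MII 30 were higher in Cnot6l-/- and 28 in labelled Btg4-/-. Of 60 tested assembly and export factors of the large subunit 55 and 58 fell (medians -1.63 and -1.96), a smaller median change than that of the members. Eif6, which keeps the new large subunit from joining too early, changed by -5.67 (SE 0.32) from GV to MII, and Npm1, a nucleolar chaperone, by -1.50 (SE 0.43). At MII 27 of the 60 were higher and 1 lower in Cnot6l-/-, and 23 were higher in labelled Btg4-/-, the former a share near that of all genes. Of 13 genes of RNA polymerase I transcription, which makes ribosomal RNA, 11 fell and 1 rose from GV to MI, and 13 fell from GV to MII. Of 11 elongation and related factors that bind the large subunit 9 fell to MI and all 11 to MII, with Eef1a1, which brings tRNA to the ribosome, at -5.53 (SE 0.28) and Eef2, which moves it along, at -3.37 (SE 0.31). Of 9 tested regulators of TOP messages 5 and 6 fell, a smaller share than of all genes, and Mtor, the kinase upstream of them, changed by -0.91 (SE 0.25) from GV to MII.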

How the data were processed

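RNA of mouse oocytes and zygotes was sequenced after Smart-Seq2 amplification and Tn5 tagging. Per the submitters' processing notes, the authors used CASAVA 1.8, TopHat2 2.0.11, Bowtie2 2.1.0 and Cufflinks 2.2.1 with mm9. The deposited values are FPKM with 2 decimals; their scaling between libraries, and the counting of reads that match several genes, are not stated. Depth is unknown, so precision rests on the 2 libraries per group. Tables of single libraries were not used. Values of 1 member and 1 related gene are not reported here by name; the member stays in all counts and medians. MI columns are numbered 2 and 3 but their titles 1 and 2, so they were assigned by group only.

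The 10884 genes that reached 1 FPKM on average in any group were fitted as log2(FPKM + 1) with limma 3.58.1 (R 4.3.3; lmFit, eBayes with a trend, 1 mean per group over all 24 libraries), two-sided, Benjamini-Hochberg over all genes, adjusted p under 0.05. A pseudocount of 1 understates changes of low genes, so the gap between the log2 medians of the members and of all genes is overstated. The fit was tested on simulated data. Alternatives were no filter, a pseudocount of 0.1, median-ratio scaling, scaling to a fixed total, only the libraries compared, the library number as a block and each library left out in turn. Values are given for members of set roles, paralogs, the 3 highest and 3 lowest changes and the exceptions; the text gives a subset, and other genes were chosen after their values were seen. Sequence features used GENCODE vM1 (mm9) transcripts nearest to the table's ends and RefSeq promoters. The members and all lists were chosen with earlier results of these data known. Python 3.11.15, numpy 2.4.6, pandas 2.3.3 and matplotlib 3.10.9 were used.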

Additional observations from a re-analysis of the deposited data

Results flagged for a closer look

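The fall from GV differed between genotypes by a test of the difference itself. At MI 41 members fell less in Cnot6l-/- than in WT and 46 fell less in labelled Btg4-/-. At MII the counts were 45 and 26. Of all genes 44.4%, 45.4%, 24.1% and 13.3% were called the same way, and after median-ratio scaling the 4 member counts were 29, 32, 34 and 18. Rpl36al had the largest difference at MI, 4.62 on the log2 scale in Cnot6l-/- and 5.05 in labelled Btg4-/-, Rpl35 the largest at MII in Cnot6l-/-, 4.83, and Rpl18 the largest at MII in labelled Btg4-/-, 4.38.

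The processed copy Rpl34-ps1, which is outside the comparisons, was above its WT level in knockout zygotes, with a mean of 60.6 FPKM in Cnot6l-/- and 233 FPKM in labelled Btg4-/- (2 libraries each).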

How the results depend on the processing

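Of 288 recomputed counts of members called, 239 stayed within 1.5 times the reported count, 48 moved further and 1 reversed. With a pseudocount of 0.1 the counts were 6 for Cnot6l-/- GV to MI, 0 for labelled Btg4-/- GV to MI, 5 for labelled Btg4-/- MII to zygote and 15 for Cnot6l-/- against WT in zygotes; without a filter labelled Btg4-/- GV to MI gave 2. With median-ratio scaling they were 22 (Cnot6l-/- GV to MI), 0 (labelled Btg4-/- GV to MI), 22 (WT MI to MII), 7 (Cnot6l-/- MI to MII), 33 (Cnot6l-/- GV to MII), 11 (WT MII to zygote), 4 (labelled Btg4-/- MII to zygote), 22 (labelled Btg4-/- against WT at MII) and 17 (the same in zygotes). With a fixed total they were 5, 0, 13 (Cnot6l-/- MI to MII), 21 (Cnot6l-/- GV to MII), 15 (WT MII to zygote), 4 (labelled Btg4-/- MII to zygote), 0 (Cnot6l-/- against WT at GV), 19 (labelled Btg4-/- against WT in zygotes) and 29 (labelled Btg4-/- interaction at MI), and Cnot6l-/- against WT in zygotes reversed, with 14 called, 8 of them lower. Fitted on only the libraries compared, with fewer libraries to set the spread, the counts were 0 for labelled Btg4-/- GV to MI, for MII to zygote in WT and in labelled Btg4-/-, and for Cnot6l-/- against WT at GV, 5 for labelled Btg4-/- against WT in zygotes, and 42, 8 and 9 between the knockouts at MI, MII and in zygotes. The change of Rpl10l from GV to MI in WT was 0.0064 with median-ratio scaling and 0.35 with a fixed total, both reversed and not called. The cause was not tested. Outside the 2 scalings, the share of all genes called is mostly not given beside these refit counts or those with a library left out. Such counts do not show whether the members or the whole table lost or gained calls.

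Leaving out 1 library gave 3 to 12 for Cnot6l-/- GV to MI, 0 to 6 for labelled Btg4-/- GV to MI, 0 to 4 for WT MII to zygote, 0 to 1 for labelled Btg4-/- against WT at GV, 3 to 13 for Cnot6l-/- against WT in zygotes, 0 to 2 between the knockouts at GV and 13 to 28 in zygotes; the single library then left is taken to vary as the others do. Without Rpl41 the summed FPKM was 17720 at WT GV, 1389 at WT MI, 451 at WT MII, 335 in WT zygotes, 6891 at Cnot6l-/- MI, 10010 at labelled Btg4-/- MI and 1931 at labelled Btg4-/- MII, and the share 0.874% at WT MI, 0.453% at WT MII, 2.28% at Cnot6l-/- MI, 0.754% in Cnot6l-/- zygotes and 2.65% at labelled Btg4-/- MI.

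The labels do not say that library numbers pair the samples. Deviations of same-numbered libraries correlated at 0.28 to 0.71 between groups outside MI, except those with labelled Btg4-/- GV (-0.31 to 0), and at -0.09 to 0.01 at MI. With the library number as a replicate block, 24 members were called between the knockouts at MI in place of 0, and the other 19 counts moved by less than 1.5 times; the same 6 MI libraries without the block gave 27. No block fit was possible between MI and another stage because the MI numbers differ from the titles.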
